A study of Mus musculus with 2 samples.

Results

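The Dlk1-Dio3 domain of mouse chromosome 12 is imprinted, and 10 microRNA (miRNA) genes from its Meg3 end were measured in embryonic midbrain. They are Mir431, Mir433, Mir127 and Mir434, which lie on the plus strand opposite the gene Rtl1, and Mir770, Mir673, Mir493, Mir337, Mir540 and Mir665, which lie before Rtl1 in the direction of plus-strand transcription. The 10 genes were picked by symbol and position, with no threshold on a measured value but with earlier results of these data known, out of 1973 miRNA genes in the deposited tables. All 10 had counts in both libraries. The data are 2 small RNA libraries, with RNA under 30 bases, of midbrain tissue of the strain B6NCrl at embryonic age 15.5 days. They are biological replicates of 1 group, without a second tissue, age or genotype. Replicate 1 was made from a pool of 78 embryos and replicate 2 from a pool of 62 embryos, with males and females mixed and all described as healthy. Each pool averages over its embryos, so the spread between single animals was not measured. In such bulk tissue, fewer cells of a type and less RNA per cell cannot be told apart.

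In imprinted domains, a gene is read from the chromosome of 1 parent only. In the Dlk1-Dio3 domain the protein genes Dlk1, Rtl1 and Dio3 are read from the paternal chromosome, while long noncoding transcripts such as Meg3, Rian and Mirg, and the miRNAs that lie along them, are read from the maternal chromosome. Rtl1 derives from an ancient retrotransposon and is needed in the mouse placenta. The miRNAs cut from the transcript opposite it pair with the Rtl1 RNA over their whole length, and are known in the mouse to direct cleavage of that RNA. The domain as a whole is known for its activity in brain, placenta and muscle.

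The sequences below show what sets apart the 4 genes opposite Rtl1. Each line gives the mature miRNA of RefSeq (GRCm38.p6), 5′ to 3′, with bases 2 to 8, the seed that governs target choice, in capitals. The 3p and 5p arms are the products of the right and left sides of the precursor hairpin.
miR-127-5p: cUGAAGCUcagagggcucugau
miR-127-3p: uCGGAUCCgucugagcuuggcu
miR-431-5p: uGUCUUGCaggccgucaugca
miR-431-3p: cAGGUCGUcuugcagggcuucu
miR-433-5p: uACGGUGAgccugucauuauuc
miR-433-3p: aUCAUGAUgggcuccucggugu
miR-434-5p: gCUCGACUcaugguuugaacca
miR-434-3p: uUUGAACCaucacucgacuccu

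All 8 arms have their full reverse complement in the annotated Rtl1 transcript (GENCODE M21), each at a single place and each inside the coding sequence. Of the 12 arms of the 6 upstream genes, 0 do, and their longest complementary run in that transcript is 7 to 11 bases, against 21 to 22 bases for the arms of the genes opposite Rtl1. This follows from position, since the 4 genes lie opposite the same exon. The Rtl1 sites of the 3p arms are printed next, with the bases that pair with the seed in capitals.
Rtl1 site of miR-127-3p: agccaagcucagacGGAUCCGa
Rtl1 site of miR-431-3p: agaagcccugcaagACGACCUg
Rtl1 site of miR-433-3p: acaccgaggagcccAUCAUGAu
Rtl1 site of miR-434-3p: aggagucgagugauGGUUCAAa

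Along the Rtl1 transcript of 6358 bases, whose coding part runs from base 148 to base 5379, the site of miR-434-3p comes before the others, at bases 965 to 986. The site of miR-127-3p follows at 2642 to 2663, that of miR-433-3p at 3749 to 3770 and that of miR-431-3p at 5028 to 5049. Rtl1 runs on the minus strand, so this order is the reverse of the order on the chromosome.

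The 10 genes do not form a seed family. Their 20 arms carry 20 different seeds, and 18 of them have a seed that no other mouse gene in the RefSeq miRNA table carries, while 68.0% of all 1738 arms in that table do. The 2 shared seeds are those of miR-673-5p, also found in miR-6985-3p, and of miR-540-3p, also found in miR-6915-5p. Within a gene, the arms of Mir431 share a run of 10 bases (gucuugcagg) and those of Mir434 a run of 9 bases (uuugaacca), against runs of 3 to 6 bases in the other 8 genes. The run gaacca was picked from Mir434 itself, so its count in the other hairpins is no test. It occurs 4 times in the Mir434 hairpin and 0 times in the other 9 hairpins. In hairpin GC content the genes opposite Rtl1 (45.7 to 60.4%) overlapped the upstream ones (52.6 to 70.2%). Folding energies predicted with RNAfold lay between -44.8 and -35.1 kcal per mol for the genes opposite Rtl1 and between -58.2 and -40.9 kcal per mol for the upstream ones.

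On mm10, Mir431 (ENSMUSG00000070080.1 in the tables) lies at chr12:109590447-109590537, Mir433 (ENSMUSG00000070072.1) at chr12:109591715-109591838, Mir127 (ENSMUSG00000070076.1) at chr12:109592846-109592915 and Mir434 (ENSMUSG00000070133.1) at chr12:109594506-109594599. All 4 lie within the Rtl1 coding sequence, at chr12:109590172-109595403 on the other strand. Upstream, Mir770 (ENSMUSG00000076451.1) lies at chr12:109563692-109563785 within Meg3. Of 11 annotated Meg3 transcripts, 4 span it, and 1 of the 11 has an exon that overlaps it. Mir673 (ENSMUSG00000076316.1), at chr12:109571990-109572080, begins 264 bases past the annotated end of Meg3. Mir493 (ENSMUSG00000077025.2) is at chr12:109580233-109580315, Mir337 (ENSMUSG00000065526.3) at chr12:109585789-109585885, Mir540 (ENSMUSG00000072900.1) at chr12:109586080-109586146 and Mir665 (ENSMUSG00000076313.1) at chr12:109586314-109586407. GENCODE M21 places these last 5 genes in no other gene of the same strand. Coordinates come from GENCODE M21, and for Mir127, Mir337 and Mir540 the identifier in the tables is an earlier version, so the span that was counted may differ there.

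Levels are in CPM, which scales sense-strand read counts to a common total over all miRNA genes (CPM, counts per 1e+06 sense counts). Replicate 1 had 3429704 such reads and replicate 2 had 5752476, and 1 count equals 0.292 CPM in the first of these and 0.174 CPM in the other. A read covers a whole mature miRNA, so CPM was not divided by gene length, and reads of both arms of a gene are summed. How well each miRNA was captured in the libraries was not measured, so levels of different genes are levels of reads. Among marker miRNAs, the 8 of neurons summed to 18754 and 20218 CPM in replicates 1 and 2. Of these 8, 5 had a mean of at least 10 CPM. Endothelium, choroid plexus and liver had 1 marker each, at 24909 and 21568 CPM, 1129 and 1497 CPM, and 43.2 and 76.1 CPM. Markers of mural cells summed to 6392 and 5868 CPM, those of neural progenitors to 4533 and 4558 CPM and those of mesenchyme to 3920 and 3889 CPM. Those of red cells summed to 197 and 208 CPM, and those of microglia and white cells to 334 and 319 CPM. Of 5 markers of skeletal or heart muscle in the tables, 3 had no count, and the sum was 30.6 CPM in replicate 1 and 63.6 CPM in replicate 2. The neuronal marker Mir124a-1, which has near copies elsewhere in the genome, had 4.08 CPM in replicate 1 and 3.30 CPM in replicate 2. Reads that map to several places are listed apart in the tables and are in no gene's count. The 3 muscle markers without a count, Mir1a-1, Mir133a-1 and Mir133a-2, are also numbered copies. Their lack of counts therefore does not show that muscle was absent. Mir9-2 of neural progenitors and Mir199a-1 of mesenchyme, at means of 1.66 and 0.348 CPM, may be undercounted in the same way.

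Together the 10 genes held 1.83% (95% exact binomial interval 1.81 to 1.84) of sense counts in replicate 1 and 1.93% (1.92 to 1.95) in replicate 2. Most of this came from the 4 genes opposite Rtl1, which had 52068 counts in replicate 1 and 92042 in replicate 2, against 10602 and 19214 counts for the 6 upstream genes. The genes opposite Rtl1 thus made up 83.1% (82.8 to 83.4) of the counts of the 10 genes in replicate 1 and 82.7% (82.5 to 83.0) in replicate 2, or 82.9 ± 0.250% (SD, n = 2). Their summed level was 4.85 ± 0.0854 times that of the upstream genes (SD, n = 2). Intervals cover counting error only, since reads are not independent molecules.

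**Figure D1:**
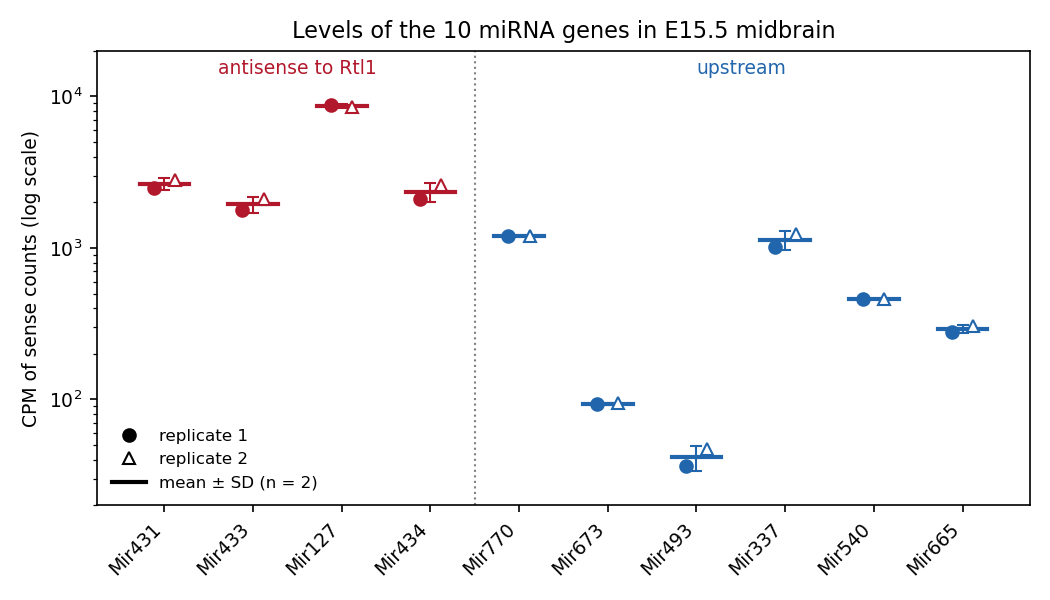
CPM of sense counts on a log axis for each gene in replicate 1 (filled circles) and replicate 2 (open triangles), with the mean as a line and the SD as a bar; genes opposite Rtl1 are red and upstream genes blue. All 4 red genes lie above all 6 blue genes, and Mir127 stands highest at 8661 CPM.

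Mir127 was the highest of the 10 genes. Its miRNA is known from mice that lack it, which have defects of the placental labyrinth. It had 8825 CPM in replicate 1 and 8497 CPM in replicate 2, a mean of 8661 ± 232 CPM (SD, n = 2), which ranked it 23 of all genes in replicate 1 and 24 in replicate 2. It alone held 58.1% of the counts of the genes opposite Rtl1 in replicate 1 and 53.1% in replicate 2. Its mean was 3.27 times that of Mir431, the next gene, and the ranges of mean ± SD of the pair did not overlap. The other genes nearest to it in level over the 2 libraries were Mir20a, of the Mir17 cluster, at 8726 and 8799.5 CPM, and Mir30d at 8912 and 9252 CPM. Their distances from it on the log2(CPM + 1) scale were 0.053 and 0.12.

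Mir431, Mir434 and Mir433 formed a closer group. Mir431, whose miRNA has been reported to favour axon growth of mouse sensory neurons by repressing Kremen1, had 2479.8 CPM in replicate 1 and 2817 CPM in replicate 2. Mir434, studied in mouse muscle as a regulator of apoptosis, had 2108 CPM in replicate 1 and 2585 CPM in replicate 2. Mir433, reported to target FGF20 in human cells, had 1769 CPM in replicate 1 and 2101 CPM in replicate 2. The means were 2649 ± 239 CPM for Mir431, 2347 ± 337 CPM for Mir434 and 1935 ± 235 CPM for Mir433 (SD, n = 2). The order of the genes was the same in both libraries, but the ranges of mean ± SD of neighbours in this order overlapped. The highest of the genes opposite Rtl1 exceeded the lowest 4.99 times in replicate 1 and 4.04 times in replicate 2.

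The upstream genes ran over a wider range, 33.2 times from lowest to highest in replicate 1 and 26.3 times in replicate 2. Mir770, the miRNA gene inside Meg3, had 1199.8 CPM in replicate 1 and 1192 CPM in replicate 2, a mean of 1196 ± 5.27 CPM (SD, n = 2). Mir337, whose miRNA has been linked in rat cartilage to repression of a TGF-beta receptor, had 1019.9 CPM in replicate 1 and 1238 CPM in replicate 2, a mean of 1129 ± 154 CPM. Mir770 was above Mir337 in replicate 1 and below it in replicate 2, so the order of these genes was not settled by the data. The genes nearest to Mir770 in level were Mir467d, at 1310 and 1173 CPM, and Mir467c, at 1253 and 1307 CPM. Both belong to a family of near copies, so their own levels are uncertain.

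The remaining upstream genes were lower, and each was separated from its neighbour in the order by more than the SDs. Mir540 had 463 CPM in replicate 1 and also 463 CPM in replicate 2. Mir665 had 279.6 CPM in replicate 1 and 305 CPM in replicate 2. Mir673, just past the end of Meg3, had 92.7 CPM in replicate 1 and 94.2 CPM in replicate 2. Mir493, studied in human colon cancer cells as a suppressor of metastasis, was the lowest with 36.2 CPM (95% exact Poisson interval 30.1 to 43.1) in replicate 1 and 47.1 CPM (41.7 to 53.1) in replicate 2. It rests on 124 counts in replicate 1 and 271 counts in replicate 2, so it is the least precise of the 10. Mir493 and Mir337 are neighbours among the 10 genes on the chromosome, and their mean levels were 41.6 and 1129 CPM.

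The sets did not overlap in either library. In replicate 1 the lowest gene opposite Rtl1, Mir433, was 1.47 times the highest upstream gene, Mir770. In replicate 2 Mir433 was 1.70 times the highest upstream gene, which there was Mir337. Median levels were 2294 CPM for the genes opposite Rtl1 and 371 CPM for the upstream genes in replicate 1, and 2701 CPM and 384 CPM in replicate 2. The median over all 717 genes with a count was 3.79 CPM in replicate 1 and 3.65 CPM in replicate 2. The gap between the sets does not rest on Mir127 alone, since the other 3 genes opposite Rtl1 summed to 2.06 times the upstream genes in replicate 1 and 2.25 times in replicate 2. The members of a set share a locus and are not replicates, so no test was made of the difference.

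**Figure D2:**
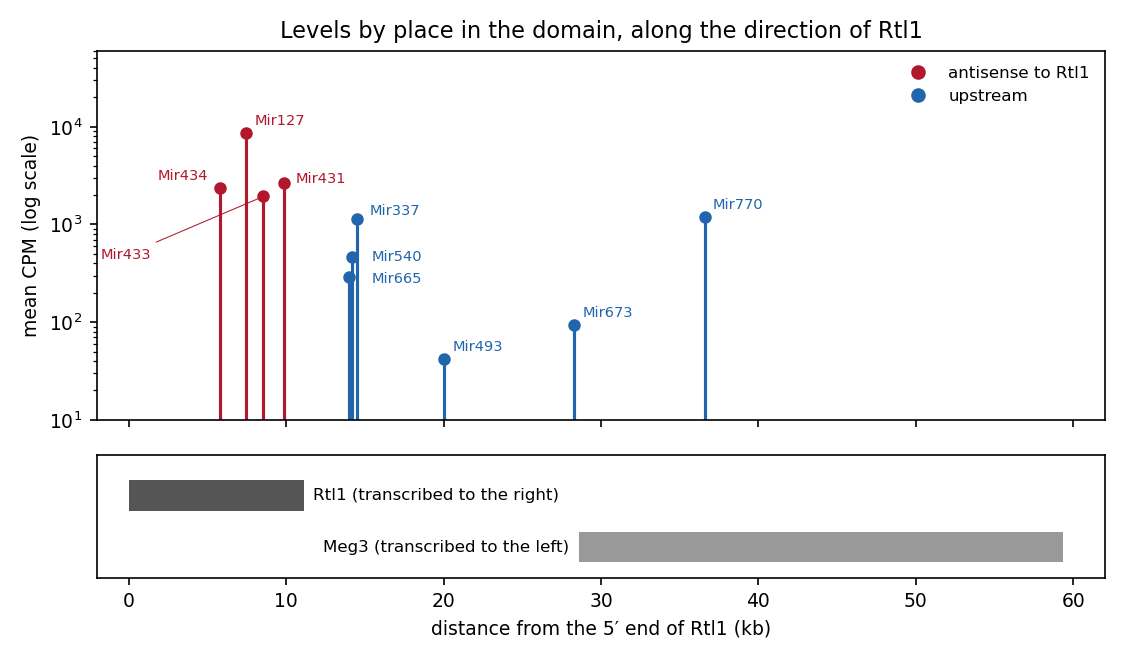
Mean CPM of each gene on a log axis against its distance in kb from the 5′ end of Rtl1, counted in the direction of Rtl1, with the spans of Rtl1 and Meg3 drawn to scale below. The genes opposite Rtl1 (red) stand at 1935 to 8661 CPM, while levels of the upstream genes (blue) do not follow distance: Mir493 and Mir673, at 41.6 and 93.5 CPM, lie between Mir337 at 1129 CPM and Mir770 at 1196 CPM.

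The other genes measured within the Rtl1 span had lower levels than Mir431, Mir433, Mir127 and Mir434. Whether position sets the level was not tested. Mir432, which GENCODE M21 puts on the plus strand within the Rtl1 span and which is not 1 of the 10 genes, had 0 counts in both libraries, which allows at most 0.875 CPM in replicate 1 and 0.522 CPM in replicate 2 at a floor of 3 counts. The identifier that M21 names Mir3071, also within the Rtl1 span, had 399 CPM in replicate 1 and 449.9 CPM in replicate 2, below Mir770, Mir337 and Mir540 in each library. M21 draws Mir3071 on the minus strand, directly opposite Mir136, which has no row of its own in the tables. The version of the Mir3071 identifier in the tables is older than that in M21, and the strand that was counted is not given in the sources used here, so its reads were not assigned to either miRNA. Between the upstream genes and Rtl1, Mir3070a had 6 counts in replicate 1 and 22 in replicate 2, and Mir3070b had 2 in each. Mir1906-1, within Meg3, had 0 counts in both. With these 5 genes counted in their sets, genes within the Rtl1 span held 83.3% of counts from Meg3 to Rtl1.

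Reads on the other strand were examined because, at the genes opposite Rtl1, that is the strand of Rtl1. Mir431, Mir433, Mir127 and Mir434 had 0 opposite-strand counts in both libraries. Against 52068 sense counts in replicate 1 and 92042 in replicate 2, 0 counts have a 95% exact binomial upper limit of 0.00708% in replicate 1 and 0.00401% in replicate 2 for the opposite-strand share. A count of 0 is what most genes showed. Of the 308 genes of at least 10 CPM, 23 (7.47%) had an opposite-strand count in replicate 1 and 29 (9.42%) in replicate 2. Over all genes, 2.23% of counts in replicate 1 and 2.36% in replicate 2 were on the opposite strand, carried by 43 genes in replicate 1 and 57 genes in replicate 2. The libraries held RNA under 30 bases, so whole Rtl1 transcripts were not measured.

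Among the 10 genes, Mir337 alone had opposite-strand counts, 16 in replicate 1 and 21 in replicate 2, and 1 of 10 is near the share among genes of at least 10 CPM. These were 0.455% (95% exact binomial interval 0.260 to 0.738) and 0.294% (0.182 to 0.449) of its counts on both strands. M21 annotates a miRNA gene, Mir3544, on the minus strand at chr12:109585813-109585873, inside the span of Mir337, and the tables have no row for it. The arms of both genes are printed with seeds in capitals because they are complementary over long runs.
miR-337-5p: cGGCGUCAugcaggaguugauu
miR-3544-3p: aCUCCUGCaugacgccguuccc
miR-337-3p: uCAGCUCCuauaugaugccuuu
miR-3544-5p: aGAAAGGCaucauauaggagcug

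The complementary run is 17 bases long between miR-337-5p and miR-3544-3p and 21 bases long between miR-337-3p and miR-3544-5p. The sequences of the 16 and 21 reads are not used here, so whether they are miR-3544 was not tested. As counts they came to 4.67 CPM in replicate 1 and 3.65 CPM in replicate 2.

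The libraries were next compared with each other, since their difference is the only replicate check on these levels. Ratios are replicate 1 over replicate 2 on the log2 scale after TMM scaling, a between-library correction, with 1 CPM added to each level, and the test was a two-sided conditional exact binomial test, its p-values adjusted by Benjamini-Hochberg across all 717 genes that had counts. Of the 10 genes, 5 were called at an adjusted p under 0.05, 1 of them higher in replicate 1 and 4 higher in replicate 2. The share called over all tested genes was 19.8%, with 10% higher in replicate 1 and 9.76% higher in replicate 2. Calls depend on depth, however. Among the 308 genes of at least 10 CPM, which include all 10, 131 were called, 64 higher in replicate 1 and 67 higher in replicate 2. With p-values adjusted within these 308 genes alone, 5 of the 10 were again called. The share called among the 308 was then 46.4%, with 22.7% higher in replicate 1 and 23.7% higher in replicate 2. Set against that share, 5 of 10 is near the background. The test compares these libraries and not conditions.

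Mir127 was slightly higher in replicate 1 (log2 ratio 0.09, 95% counting interval 0.07 to 0.11, adjusted p 1.21e-15 in the exact binomial test). The other 3 genes opposite Rtl1 were higher in replicate 2. Mir434 had a log2 ratio of -0.26 (counting interval -0.30 to -0.22, adjusted p 1.02e-35 in the exact test), the largest called difference of the 10. Mir433 had -0.21 and Mir431 had -0.15, with adjusted p 2.75e-20 and 6.60e-14 in the exact binomial test. As a result the make-up of the set opposite Rtl1 differed, with Mir127 at 58.1% of its counts in replicate 1 and 53.1% in replicate 2, while the set as a whole had a log2 ratio of -0.04 (-0.06 to -0.03).

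Of the upstream genes, Mir337 was higher in replicate 2 (log2 ratio -0.25, adjusted p 1.14e-15 in the exact binomial test). The other 5 were not called. Mir770, Mir540 and Mir673 had log2 ratios of 0.04, 0.03 and 0.01, and Mir665 had -0.09. Mir493 had a ratio of larger size, -0.34, but its counting interval of -0.67 to -0.04 is wide and its adjusted p in the exact test was 0.124. The median ratio over the 10 genes was -0.12, against 0.0023 over the genes of at least 10 CPM and -0.04 over all 717 tested. Marker levels, as given above, also differed between the libraries for some cell types. Summed over each list, those of muscle, liver, choroid plexus and neurons were lower in replicate 1, and those of endothelium and mural cells were higher. Single markers did not all follow the sum of their list. The neuronal Mir124a-1, Mir124a-2 and Mir124a-3 were each higher in replicate 1. Mir145a of mural cells was lower there, at 70.0 CPM in replicate 1 and 74.6 CPM in replicate 2. The libraries were closer in markers of neural progenitors, mesenchyme, red cells, and microglia and white cells. The part of these marker differences in the ratios was not tested.

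All of these differences are small. The median absolute log2 ratio of the 10 genes was 0.12, against 0.13 for genes of at least 10 CPM. In edgeR's exact test with the biological coefficient of variation set at 10%, 0 of the 10 genes were called, 0 had an unadjusted p under 0.05, and 0.418% of all 717 were called. The 10% was assumed and not estimated from these data, so these calls depend on it. With 1 library per pool, the differences between the libraries have no replicate check of their own.

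**Figure D3:**
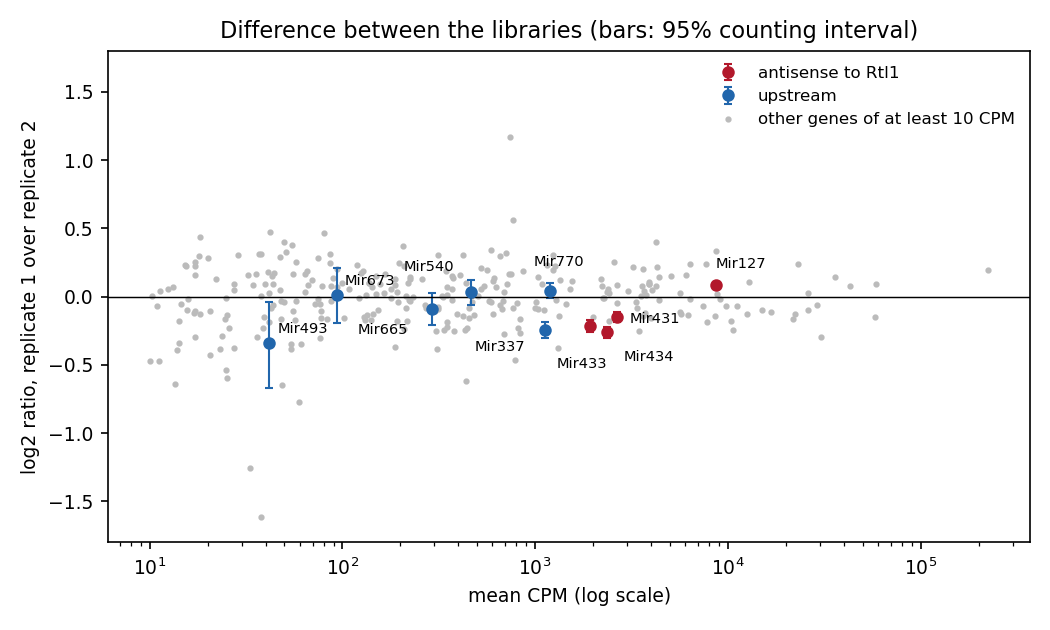
Log2 ratio of replicate 1 over replicate 2 against mean CPM (log axis), with 95% counting intervals as bars, for the genes opposite Rtl1 (red), the upstream genes (blue) and 298 other genes of at least 10 CPM (grey). The 10 genes lie within the grey cloud, from -0.34 for Mir493 to 0.09 for Mir127.

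The distal miRNA cluster of the same domain, from Mir379 to Mir3072, gives a scale for these levels. Its 34 plus-strand miRNA genes in the tables held 7.21% of sense counts in replicate 1 and 8.06% in replicate 2, which was 3.95 and 4.17 times the counts of the 10 genes. The 10 genes had a median of 1163 CPM, against 221 CPM for the distal genes, as means of the libraries. All 10 had a mean of at least 10 CPM, and 30 of the 34 distal genes did. The lists were not made alike, however. The distal list takes every plus-strand miRNA gene of its span that the tables hold, while the 10 were picked by symbol and position. Left out of the 10 were Mir432 and Mir1906-1, with 0 counts, and Mir3070a, Mir3070b and Mir3071, at means of 2.79, 0.465 and 424 CPM. These medians and counts are therefore no like comparison of proximal with distal genes. Of the distal genes, 2 were above Mir127, 7 were above Mir433 and 9 were above Mir770. Mir487b, the highest distal gene, had 26853 CPM in replicate 1 and 33666 CPM in replicate 2. Of the 31 distal genes with a count, 4 were higher in replicate 1 and 8 in replicate 2 by the exact binomial test, with a median log2 ratio of 0.0066. The same test called 19.8% of all 717 tested genes, and 131 of the 308 genes of at least 10 CPM. The summed distal counts had a log2 ratio of -0.127 (counting interval -0.134 to -0.120), against -0.048 (-0.063 to -0.034) for the 10 genes.

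**Figure D4:**
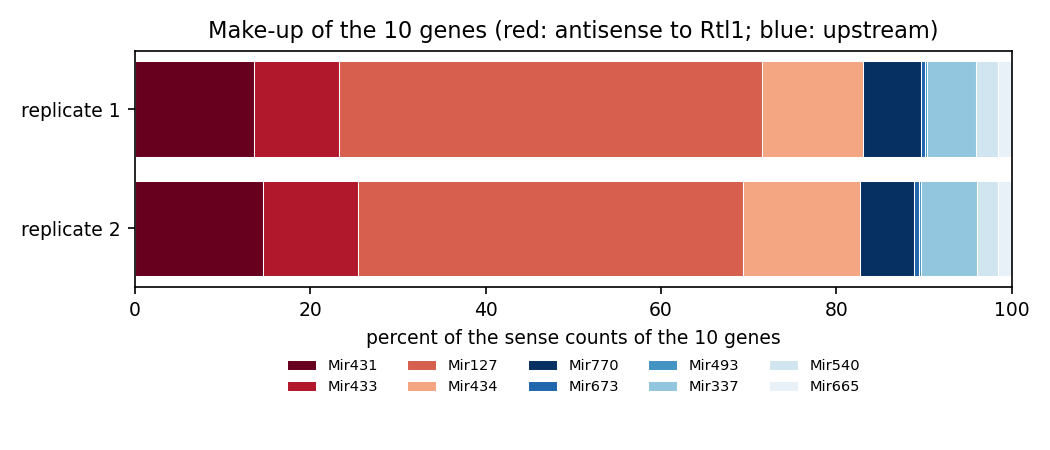
Share of each gene in the summed sense counts of the 10 genes, in percent, for replicate 1 (top bar) and replicate 2 (bottom bar), with genes opposite Rtl1 in reds on the left and upstream genes in blues on the right. The reds end at 83.1% in replicate 1 and 82.7% in replicate 2, and Mir127 takes 48.3% in replicate 1 and 43.9% in replicate 2.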

How the data were processed

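Small RNA of 2 midbrain pools was analysed. The authors deposited whole read counts per miRNA gene in 3 columns (either strand, sense, opposite), without normalization and made on mm10 with GENCODE M4 per the deposited readme texts; no source used here names the aligner or counter. The columns carry no header, so their strand roles were read from the layout and the totals: the sense column holds nearly all gene reads. The 4 rows that name no gene were left out of totals; they hold unmapped reads (13.4% and 16.9% of reads in replicates 1 and 2), reads with several places (37.7% and 35.8%), reads outside genes (3.57% and 3.43%) and ambiguous reads (0%). Of 1973 identifiers, 1894 matched GENCODE M21. A gene was taken as opposite Rtl1 where its span lay within the Rtl1 span on the other strand. TMM factors came from edgeR 4.0.16, size factors from DESeq2 1.42.0, exact tests from scipy 1.17.1 and folding energies from RNAfold 2.7.2. Mature sequences were those of RefSeq (all 10 genes matched). edgeR's quasi-likelihood test could not be fitted to 1 group. The binomial procedure was run on simulated counts that held sampling noise only, so that run does not cover the wider spread between the real libraries. A chi-square of 27151 (438 degrees of freedom) put the libraries further apart than sampling noise, so they were kept as 2 samples. Genes named are the 10, the other table genes from Meg3 to Rtl1 and the highest distal gene. The 2 genes nearest in level to Mir127 and to Mir770 are also named, as are some marker genes. The 10 genes and all lists were chosen with earlier results of these data known. Alternatives were other columns, totals, scalings, pseudocounts and filters, each replicate left out, and set definitions.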

Additional observations from a re-analysis of the deposited data

Results flagged for a closer look

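Reads opposite to Mir337 stand outside the sense counts used for levels. They numbered 16 in replicate 1 and 21 in replicate 2, above the floor of 3 counts in both libraries, while the other 9 genes had 0 opposite-strand counts in both. Among the 308 genes of at least 10 CPM, 7.47% had an opposite-strand count in replicate 1 and 9.42% in replicate 2, so 1 of 10 genes is near the background. Mir3544 is annotated on that strand and has no row in the tables. Whether the reads come from it was not tested.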

How the results depend on the processing

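The share held by the 10 genes was 1.88% of sense counts, 2.42% when Mir99a, the gene of most counts, was left out of the total, and 0.839% of all reads listed. Their median level of 1163 CPM became 1496 CPM and 518 CPM under the same totals. The share of the genes opposite Rtl1, 82.9%, was 68.2% without Mir127. It was 84.3% with counts per hairpin base and 83.3% with every table gene from Meg3 to Rtl1, both chosen after seeing the data; all of these moved by construction. With each replicate left out, the values were 1.83 to 1.93%, 1109.9 to 1215 CPM, 82.7 to 83.1% and, for the opposite-strand share of the 10 genes, 0.0189 to 0.0255%. With a coefficient of variation of 10%, 3 genes were called in place of 142, and 0 in place of 5 among the 10. The other scalings, pseudocounts, filters and the either-strand column left 5 called among the 10. With total counts in place of TMM, the uncalled log2 ratios of Mir673 and Mir540 turned to -0.023 and -0.0014. No paired analysis was possible because there is 1 group. Depth limits Mir493 most, and reads with several places are missing from all levels.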
